A study of Homo sapiens with 6 samples.

Results

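The death receptors are surface proteins of the tumour necrosis factor (TNF) receptor superfamily that can start apoptosis, and TRAIL, encoded by TNFSF10, is a ligand of several of them. The 10 genes described here were chosen by name as the ligand TNFSF10, its receptors TNFRSF10A, TNFRSF10B, TNFRSF10C and TNFRSF10D, the death receptors FAS and TNFRSF21, the adaptor FADD, the caspase CASP8 and its inhibitor CFLAR. All 10 were found by NCBI Gene ID among the 16623 genes measured. Expression was measured by RNA-seq in MDA-MB-231, an established human breast cancer cell line that lacks the hormone receptors, after treatment with PCI-24781, an inhibitor of histone deacetylases (HDACs), or with its solvent DMSO. The 6 groups were DMSO for 24 h, DMSO for 48 h, and PCI-24781 at 100 nM or 200 nM for 24 h or 48 h. Each group had 1 library, so the differences described here have no replicate check and were not tested. The depth inferred for the libraries of 24 h was 18700000 fragments with DMSO, 18300000 with 100 nM and 18100000 with 200 nM, and for those of 48 h it was 18200000, 18600000 and 16400000 fragments in the same order. Levels are given as FPKM (fragments scaled to transcript length and to depth), which can be compared between genes.

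TRAIL binds to TNFRSF10A (DR4) and TNFRSF10B (DR5), whose intracellular death domains recruit the adaptor FADD and through it caspase-8, which then cuts and activates the caspases that dismantle the cell. TNFRSF10C and TNFRSF10D bind the same ligand but have no complete death domain and are known as decoy receptors, while CFLAR (c-FLIP) takes the place of caspase-8 in the complex and restrains it. FAS works through the same adaptor with its own ligand, and TNFRSF21 (DR6) also carries a death domain.

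The promoters of TNFRSF21 and TNFSF10 are shown because TNFRSF21 had the widest range on the log2(FPKM + 1) scale and TNFSF10 the largest ratio of its highest to its lowest level among the 10 genes. The sequences are those of RefSeq for build GRCh38.p14 and run from 250 bases before to 50 bases after the annotated start, 5′ to 3′ on the strand of the gene. The promoter of TNFRSF21 lies at chr6:47309856-47310155 and that of TNFSF10 at chr3:172523381-172523680, both on the minus strand. Capitals mark matches on either strand to the GC box GGGCGG, the CCAAT box CCAAT and the TATA box TATAAA.
TNFRSF21: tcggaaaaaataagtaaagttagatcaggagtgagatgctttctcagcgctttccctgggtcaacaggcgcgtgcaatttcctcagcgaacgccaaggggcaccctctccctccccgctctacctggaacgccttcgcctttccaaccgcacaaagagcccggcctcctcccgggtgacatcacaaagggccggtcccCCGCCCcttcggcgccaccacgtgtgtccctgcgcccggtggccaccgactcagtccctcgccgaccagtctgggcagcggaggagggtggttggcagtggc
TNFSF10: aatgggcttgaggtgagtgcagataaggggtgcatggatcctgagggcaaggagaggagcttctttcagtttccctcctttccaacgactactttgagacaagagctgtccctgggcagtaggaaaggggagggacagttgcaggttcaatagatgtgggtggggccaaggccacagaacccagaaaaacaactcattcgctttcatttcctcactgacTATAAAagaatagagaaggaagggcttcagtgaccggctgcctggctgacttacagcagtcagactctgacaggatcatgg
The TNFRSF21 promoter held 1 GC box, on the opposite strand, and the TNFSF10 promoter held 1 TATA box, so no matches overlapped. Of 35116 human promoters of 300 bases in the same table, 45.0% held a GC box, 34.6% a CCAAT box and 11.5% a TATA box. TNFRSF21 had 23 CpG dinucleotides in this window and TNFSF10 had 3, against a median of 14, and 64.2% and 18.2% of the promoters had fewer than these genes. The GC content was 63.3% for TNFRSF21 and 51% for TNFSF10. The FADD promoter, with 36 CpG dinucleotides and 2 GC boxes, was richer in CpG than 87.3% of the promoters. Entries matched 6 of the 10 genes, and those of TNFRSF10A, TNFRSF10B, TNFRSF10C and TNFRSF10D were missing.

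In the coordinates of the files (hg19), TNFSF10 (NCBI Gene ID 8743) is located on chromosome 3 from 172223298 to 172241297 and TNFRSF21 (27242) on chromosome 6 from 47199263 to 47277683, both on the minus strand. FAS (355) lies on chromosome 10 from 90750316 to 90776818 and FADD (8772) on chromosome 11 from 70049269 to 70053508, both on the plus strand. CFLAR (8837, from 201980827 to 202037411) and CASP8 (841, from 202098166 to 202152434) lie near each other on the plus strand of chromosome 2. The genes TNFRSF10A (8797), TNFRSF10B (8795), TNFRSF10C (8794) and TNFRSF10D (8793) lie side by side in a cluster. These 4 genes are paralogs with similar sequence, so the division of fragments among them by the authors' counting is uncertain. Exons of CFLAR overlap those of the antisense gene CFLAR-AS1, exons of TNFRSF10A those of TNFRSF10A-AS1, and exons of FAS and TNFRSF10B those of ACTA2 and RHOBTB2 on the opposite strand. Exons of FADD overlap those of a gene known by a clone name on the opposite strand. On the same strand, exons of TNFRSF10C overlap those of 2 genes known by clone names and exons of CFLAR those of 1, which counting by strand would not separate. Whether the counting used strand is not given in the sources used here, so fragments of these partners cannot be told apart.

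The cell line and the dose labels were checked before the genes were compared. Of 6 genes typical of MDA-MB-231 (VIM, CD44, CAV1, MSN, AXL and SPARC), all but SPARC were abundant in every library, led by VIM, which ranged from 1629 to 2053 FPKM. SPARC had between 0.44 and 1.97 FPKM, which goes against its place on the list. The estrogen and progesterone receptor genes ESR1 and PGR stayed at or below 0.04 FPKM, CDH1 and GATA3 were low, ERBB2 ranged from 13.2 to 21.4 FPKM, and EPCAM from 2.26 to 4.70 FPKM. Markers of other cells were low. The 2 leukocyte markers that were measured, PTPRC and CD3E, summed to between 0.76 and 1.05 FPKM, nearly all from PTPRC, and CD3E was listed at 0 in 4 libraries. The endothelial markers PECAM1 and CDH5 summed to 0.39 FPKM with DMSO, 0.67 with 100 nM and 1.26 with 200 nM at 24 h, and to 1.55, 1.10 and 2.35 FPKM at 48 h, with PECAM1 the more abundant. The fibroblast markers DCN, LUM and COL1A1 summed to 1.73, 2.99, 6.76, 2.58, 1.68 and 4.77 FPKM in the same order, nearly all from COL1A1, with DCN and LUM at or below 0.07, and COL1A1 was called at least 2-fold higher at 200 nM 24 h. The part of these markers in the results was not tested.

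Genes that HDAC inhibitors are widely known to raise were read as a check of the doses. CDKN1A, the cell cycle inhibitor p21, had 13.2 FPKM with DMSO, 30.6 with 100 nM and 48.8 with 200 nM at 24 h, and 44.3 with DMSO, 25.8 with 100 nM and 52.9 with 200 nM at 48 h. CLU, which encodes the chaperone clusterin, had 18.1, 43.8 and 59.6 FPKM at 24 h and 50.5, 34.4 and 65.4 FPKM at 48 h in the same order of doses. At 24 h both followed the dose, whereas at 48 h the DMSO library lay above the 100 nM library and far above DMSO 24 h. At 24 h, 2 of the 6 dose markers were at least 2-fold higher with 100 nM (CDKN1A and CLU) and 3 with 200 nM (also MT1X, from 51.0 to 121 FPKM), but 0 at either dose at 48 h, and between the DMSO libraries the same 3 were at least 2-fold higher at 48 h. TUBB3 was 0.70 higher on the log2 scale at 200 nM 24 h. The DMSO 48 h library thus goes against its label on these markers. Time in culture and a property of single libraries cannot be told apart, so changes of the 10 genes against the DMSO library of the other time are also given below.

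TNFRSF21 and TNFRSF10B were the most abundant of the 10 genes and TNFRSF10C and TNFSF10 the least. Median levels over the 6 libraries were 69.3 FPKM for TNFRSF21, 41.3 for TNFRSF10B, 26.2 for FADD, 24.6 for TNFRSF10D, 21.2 for CASP8, 20.6 for CFLAR, 6.50 for TNFRSF10A, 1.85 for FAS, 1.24 for TNFRSF10C and 1.17 for TNFSF10. The median of TNFRSF21 was above that of 93.8% of all genes measured, and the median of TNFSF10 above that of 32.5%. In this order, the ranges of TNFRSF10B and FADD, of CFLAR and TNFRSF10A, and of TNFRSF10A and FAS did not overlap, and those of all other neighbours did. TNFRSF21 lay above TNFRSF10B in all 6 libraries although their ranges overlapped, while FADD lay above TNFRSF10D in 3 libraries and TNFRSF10C above TNFSF10 in 3. The signaling machinery between receptor and caspase was thus present at between 17.8 and 28.0 FPKM, and the ligand itself was close to 1 FPKM.

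**Figure D1:**
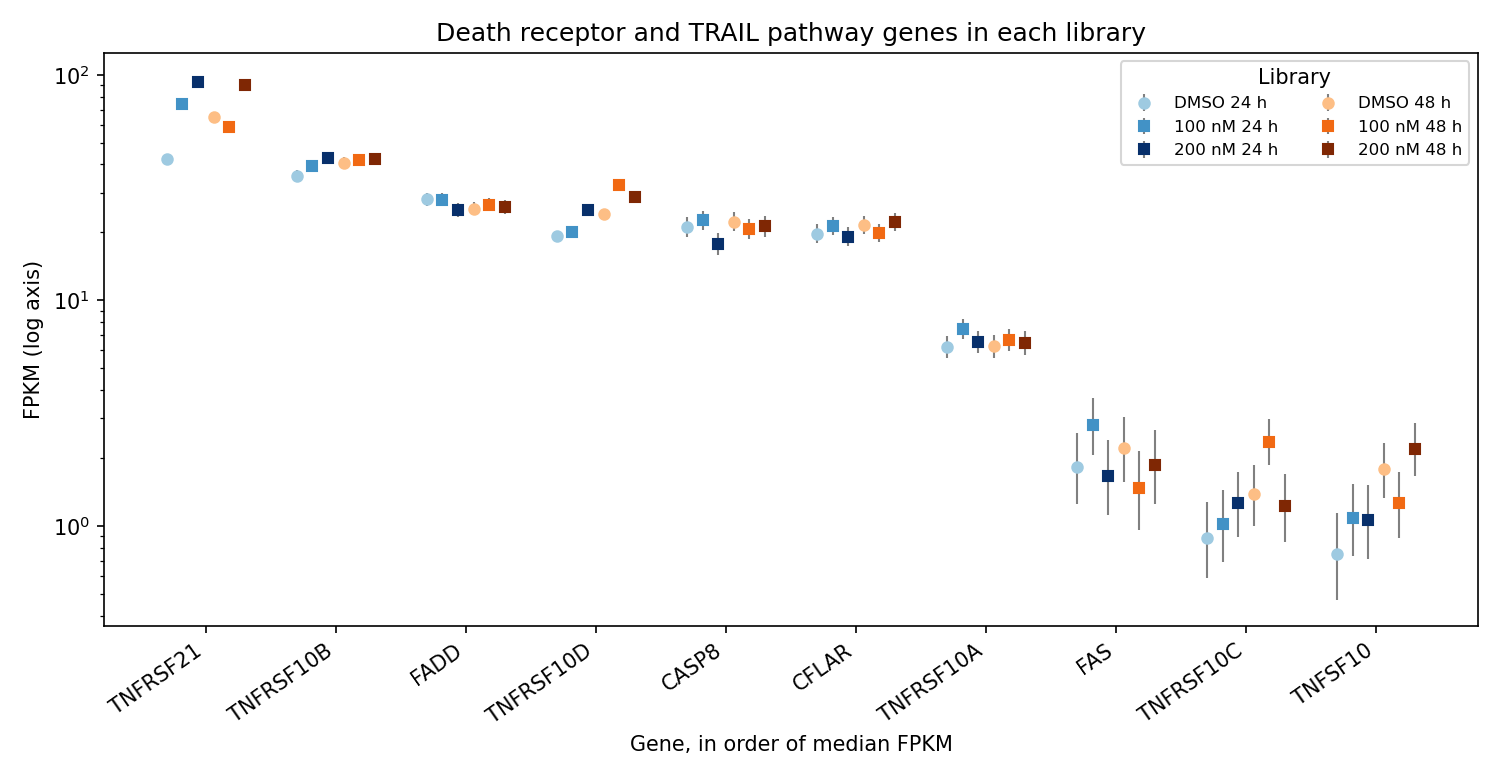
FPKM of the 10 genes (log axis) in each of the 6 libraries, in order of their median. Circles are DMSO libraries, squares are PCI-24781 libraries, and bars are approximate 95% Poisson intervals of counting error; TNFRSF21 ranges from 42.5 to 93.3 FPKM, while CFLAR stays between 19.2 and 22.2 FPKM.

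Across the 4 comparisons of a PCI-24781 library with the DMSO library of the same time, 1 of 40 changes of these genes reached 2-fold. A change is the difference in log2(FPKM + 1), and a gene was called at 2-fold or more if either of the libraries compared had 1 FPKM or more, a filter that all 10 genes passed in each comparison. The only call was TNFRSF21 at 200 nM 24 h, and the other 9 genes were called in none. At 100 nM 24 h, 0 of the 10 genes were called higher, where 1.35% of 11475 genes tested were, and 0 were called lower, where 0.131% were. At 200 nM 24 h, 1 was called higher, against 4.49% of 11660 genes, and 0 lower, against 1.48%. At 100 nM 48 h, 0 were called higher, against 0.0608% of 11514 genes, and 0 lower, against 0.408%. At 200 nM 48 h, 0 were called higher, against 0.206% of 11665 genes, and 0 lower, against 0.06%. Between DMSO 48 h and DMSO 24 h, 0 were called higher, against 2.49% of 11490 genes, and 0 lower, against 0.131%. With 10 genes, 1 call is the smallest count above 0, and nothing particular to the list can be read from it.

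The median change of the 10 genes was 0.12 on the log2 scale at 100 nM 24 h, with 9 genes above 0 and FADD below, where the median of all genes tested was 0.01. At 200 nM 24 h it was 0.15, with 6 above 0 and 4 below (FAS, CFLAR, CASP8 and FADD), and the median of all genes tested was again 0.01. At 48 h it was -0.03 at 100 nM, with 5 on each side of 0, and 0.04 at 200 nM, with 7 above 0, where the medians of all genes tested were -0.01 and 0.01. Between the DMSO libraries it was 0.19, with 9 genes above 0, a larger median than in any comparison with PCI-24781, although TNFRSF10A, at 0.01, fell below 0 after either rescaling. At 200 nM 24 h the median became -0.05 with DMSO 48 h as the reference and -0.01 with the mean of both DMSO libraries.

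**Figure D2:**
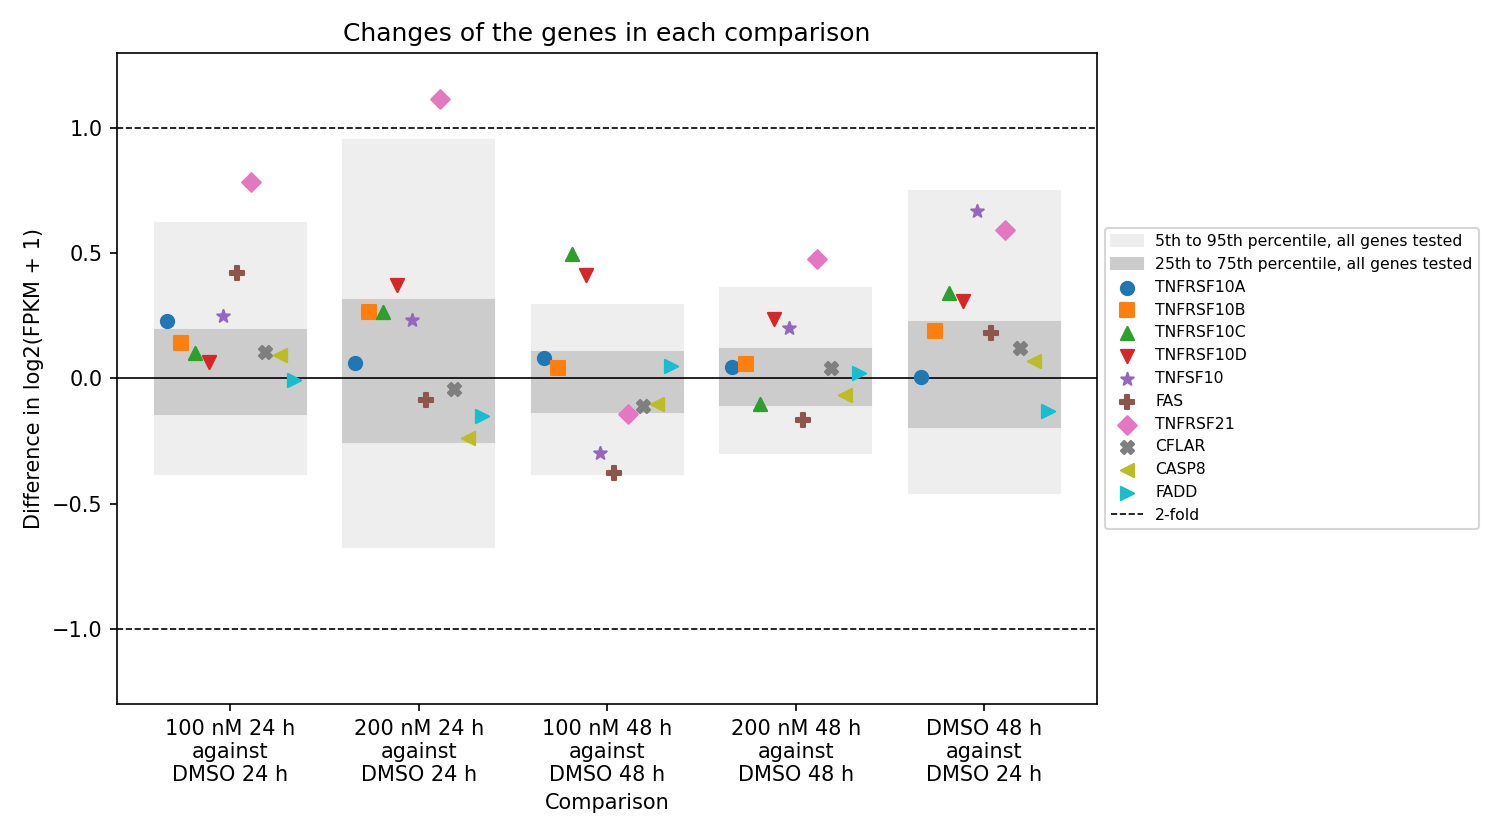
Difference in log2(FPKM + 1) of each of the 10 genes in the 4 comparisons with PCI-24781 and between the DMSO libraries, with grey bands for the middle 50% and 90% of all genes tested and dashed lines at 2-fold. TNFRSF21 at 200 nM 24 h, at 1.12, is the only point beyond a dashed line.

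The ligand TNFSF10 had 0.75 FPKM with DMSO, 1.08 with 100 nM and 1.06 with 200 nM at 24 h, and 1.78 with DMSO, 1.26 with 100 nM and 2.20 with 200 nM at 48 h. Its highest level was 2.93 times its lowest, the largest such ratio among the 10 genes, but these levels rest on few fragments, between about 22 in DMSO 24 h and 57 at 200 nM 48 h for the shorter transcript. The approximate 95% Poisson interval was 0.470 to 1.14 FPKM in DMSO 24 h and 0.734 to 1.53 at 100 nM 24 h, which overlap, and 1.33 to 2.34 in DMSO 48 h, which does not overlap that of DMSO 24 h. On the log2 scale, its changes were 0.25 with 100 nM and 0.24 with 200 nM at 24 h, and -0.30 and 0.20 at 48 h. The difference between the DMSO libraries, 0.67, was larger than each of them. With a pseudocount of 0.1 in place of 1 it was 1.15, past 2-fold. Against the DMSO library of the other time, TNFSF10 had changes of -0.42 with 100 nM and -0.43 with 200 nM at 24 h, so the sign turned, and 0.37 and 0.87 at 48 h. TNFSF10 thus had low levels in all 6 libraries, and its changes had no single direction with dose at 48 h.

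TNFRSF10B, the more abundant of the TRAIL receptors with a death domain, had 35.5 FPKM with DMSO, 39.4 with 100 nM and 43.0 with 200 nM at 24 h, and 40.7 with DMSO, 42.0 with 100 nM and 42.4 with 200 nM at 48 h. TNFRSF10A had 6.21, 7.46 and 6.52 FPKM at 24 h and 6.24, 6.67 and 6.48 FPKM at 48 h in the same order. Both were above the DMSO library of the same time in all 4 comparisons, also after both rescalings and with both other pseudocounts. The changes were small, between 0.04 and 0.27 on the log2 scale for TNFRSF10B and between 0.05 and 0.23 for TNFRSF10A. At 200 nM 24 h, 52.7% of all genes tested had a larger absolute change than TNFRSF10B. With the other DMSO library as the reference, TNFRSF10B was at -0.05 with 100 nM and 0.08 with 200 nM at 24 h and at 0.23 and 0.25 at 48 h, and TNFRSF10A at 0.22 and 0.05 at 24 h and 0.09 and 0.05 at 48 h. TNFRSF10B had between 5.27 times (100 nM 24 h) and 6.59 times (200 nM 24 h) the FPKM of TNFRSF10A.

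The decoy receptor TNFRSF10D had 19.2 FPKM with DMSO, 20.2 with 100 nM and 25.2 with 200 nM at 24 h, and 24.1 with DMSO, 32.4 with 100 nM and 28.6 with 200 nM at 48 h. It was highest in the 100 nM 48 h library, 0.41 above DMSO 48 h on the log2 scale, and 5.98% of all genes tested had a larger absolute change there. The approximate 95% Poisson intervals of those libraries, 31.1 to 33.8 FPKM and 22.9 to 25.3 FPKM, did not overlap. Its changes at 24 h were 0.07 with 100 nM and 0.37 with 200 nM, and its change with 200 nM at 48 h was 0.24, so TNFRSF10D was above DMSO of the same time in all 4, but with DMSO 48 h as the reference its changes at 24 h were -0.25 with 100 nM and 0.06 with 200 nM. With DMSO 24 h as the reference, TNFRSF10D was higher by 0.73 with 100 nM and by 0.55 with 200 nM at 48 h.

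The other decoy receptor, TNFRSF10C, is attached to the membrane by a lipid anchor. It had 0.88, 1.02 and 1.26 FPKM at 24 h in DMSO, 100 nM and 200 nM, and 1.38, 2.36 and 1.22 FPKM at 48 h. It too was highest at 100 nM 48 h, with a change of 0.50 on the log2 scale, and 3.67% of all genes tested had a larger absolute change in that comparison. Its approximate 95% Poisson interval there was 1.85 to 2.96 FPKM, from about 74 fragments, against 0.995 to 1.87 FPKM in DMSO 48 h, so the intervals overlapped slightly. At 200 nM 48 h its change was -0.10. With the other DMSO library as the reference, its changes were -0.24 with 100 nM and -0.07 with 200 nM at 24 h, where they had been 0.10 and 0.27, and 0.84 and 0.24 at 48 h. Both decoy genes thus had their highest level in the same library, and both are genes among which fragments could be divided.

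The summed FPKM of TNFRSF10A and TNFRSF10B was 41.8 with DMSO, 46.8 with 100 nM and 49.5 with 200 nM at 24 h, and 47.0 with DMSO, 48.6 with 100 nM and 48.9 with 200 nM at 48 h. The summed FPKM of the decoys TNFRSF10C and TNFRSF10D was 20.1, 21.2 and 26.4 at 24 h and 25.5, 34.8 and 29.8 at 48 h in the same order. Receptors with a death domain were therefore the more abundant in all 6 libraries. Their ratio to the decoys was 2.08, 2.21 and 1.87 at 24 h and 1.84, 1.40 and 1.64 at 48 h. It was lowest in the 100 nM 48 h library, where TNFRSF10D was highest, and the ratios in the 3 libraries of 48 h were below those in the 3 libraries of 24 h, DMSO included.

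**Figure D3:**
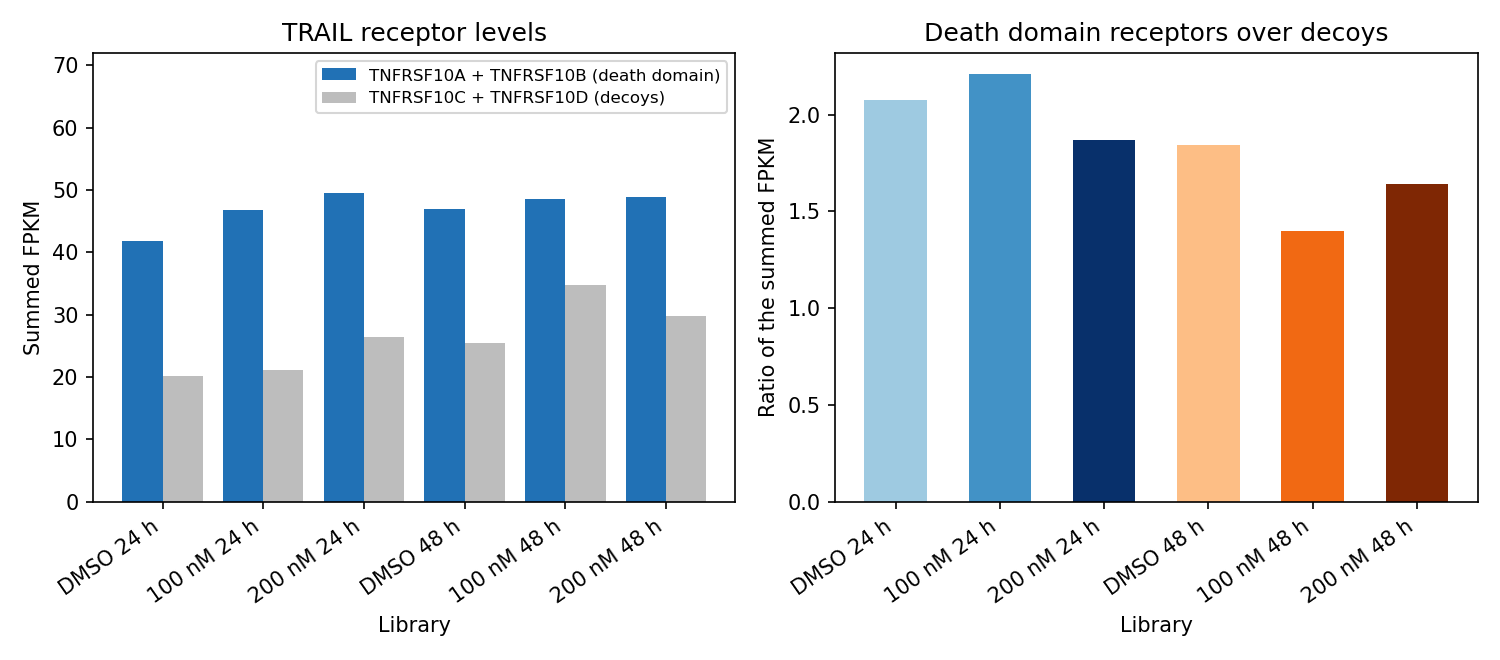
Left, summed FPKM of the TRAIL receptors with a death domain (TNFRSF10A and TNFRSF10B, blue) and of the decoy receptors (TNFRSF10C and TNFRSF10D, grey) in each library; right, the ratio of these sums. The ratio is highest at 100 nM 24 h (2.21) and lowest at 100 nM 48 h (1.40).

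FAS, the receptor of Fas ligand, had 1.83 FPKM with DMSO, 2.79 with 100 nM and 1.67 with 200 nM at 24 h, and 2.21 with DMSO, 1.47 with 100 nM and 1.86 with 200 nM at 48 h. On the log2 scale, its changes were 0.42 with 100 nM and -0.08 with 200 nM at 24 h, and -0.38 and -0.17 at 48 h. At 100 nM the signs were opposite at the different times, and at 24 h the doses lay on either side of DMSO. The approximate 95% Poisson intervals of DMSO 24 h (1.25 to 2.58 FPKM) and 100 nM 24 h (2.06 to 3.70 FPKM) overlapped when computed for the shortest of its 4 listed transcript lengths, from about 32 and 48 fragments. For the longest, these FPKM would be about 86 and 129 fragments, with narrower intervals. Those intervals were not computed, so the overlap is shown for the shortest length only and may not hold for longer ones. Against the DMSO library of the other time, FAS had changes of 0.24 with 100 nM and -0.27 with 200 nM at 24 h, and -0.20 and 0.02 at 48 h. The gene of its ligand, FASLG, was at or below 0.1 FPKM in all 6 libraries.

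TNFRSF21 had 42.5 FPKM with DMSO, 74.0 with 100 nM and 93.3 with 200 nM at 24 h, and 64.7 with DMSO, 58.5 with 100 nM and 90.4 with 200 nM at 48 h. Its level followed the dose at 24 h, and at 48 h the 200 nM library was again high while the 100 nM library lay below DMSO. The approximate 95% Poisson intervals were 41.0 to 44.1 FPKM with DMSO, 71.9 to 76.1 with 100 nM and 91.0 to 95.7 with 200 nM at 24 h, so counting error is small beside these differences, although it does not cover the variation between cultures. The change at 24 h was 0.78 on the log2 scale with 100 nM and 1.12 with 200 nM, and 3.12% and 4.27% of all genes tested had a larger absolute change in these comparisons. At 48 h it was -0.14 with 100 nM and 0.48 with 200 nM, where 3.88% had a larger one.

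The choice of DMSO library decided the call of TNFRSF21. DMSO 48 h was itself 0.59 higher than DMSO 24 h. Against DMSO 48 h, the change at 200 nM 24 h was 0.52, which is under 2-fold, and that at 100 nM 24 h was 0.19. Against the mean of both DMSO libraries, the change was 0.82 at 200 nM 24 h and 0.49 at 100 nM 24 h. Against DMSO 24 h, the change at 200 nM 48 h was 1.07, which is past 2-fold, and that at 100 nM 48 h was 0.45. In each of these comparisons the 200 nM libraries lay above the DMSO libraries, and 200 nM lay above 100 nM by 0.33 at 24 h and 0.62 at 48 h. TNFRSF21 had between 1.20 times (DMSO 24 h) and 2.17 times (200 nM 24 h) the FPKM of TNFRSF10B.

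The adaptor FADD had 28.0 FPKM with DMSO, 27.9 with 100 nM and 25.2 with 200 nM at 24 h, and 25.5 with DMSO, 26.5 with 100 nM and 25.9 with 200 nM at 48 h. Its highest level was 1.11 times its lowest, the narrowest range of the 10 genes. CASP8 had 21.2, 22.7 and 17.8 FPKM at 24 h and 22.3, 20.7 and 21.3 FPKM at 48 h in the same order, and its lowest level was in the 200 nM 24 h library, with a change of -0.24 on the log2 scale. Its other changes lay between -0.10 and 0.10. With the other DMSO library as the reference, CASP8 was at 0.02 with 100 nM and -0.31 with 200 nM at 24 h and at -0.03 and 0.01 at 48 h, and FADD was at 0.12 and -0.02 at 24 h and at -0.08 and -0.11 at 48 h.

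The inhibitor CFLAR had 19.8 FPKM with DMSO, 21.3 with 100 nM and 19.2 with 200 nM at 24 h, and 21.6 with DMSO, 20.0 with 100 nM and 22.2 with 200 nM at 48 h. Its changes lay between -0.11 and 0.10 on the log2 scale, and between -0.17 and 0.16 with the other DMSO library as the reference. The FPKM of CFLAR divided by that of CASP8 was 0.934, 0.941 and 1.08 at 24 h and 0.969, 0.964 and 1.05 at 48 h, so it was below 1 in both DMSO and both 100 nM libraries and above 1 in both 200 nM libraries. The approximate 95% Poisson intervals of CFLAR and CASP8 at 200 nM 24 h, 17.3 to 21.1 FPKM and 15.9 to 19.8 FPKM, overlapped when computed for their shortest listed transcripts. The files list several transcripts for each of these genes, and the levels do not tell long and short forms of CFLAR apart.

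Other genes of the pathway were read in lists. Of 12 other ligands and receptors of the TNF superfamily, 7 passed the filter on low values at 200 nM 24 h, 1 was called higher and 0 lower, beside 4.49% and 1.48% of all genes tested. The median change was -0.11 on the log2 scale over the 7 and 0.04 over the 12. The call was TNFRSF11B, which encodes osteoprotegerin, a secreted decoy receptor that also binds TRAIL. It had 0.54 FPKM with DMSO, 2.41 with 100 nM and 3.09 with 200 nM at 24 h, and 2.40 with DMSO, 0.52 with 100 nM and 6.09 with 200 nM at 48 h. It was called higher at both doses at 24 h and at 200 nM 48 h, called lower at 100 nM 48 h, with a change of -1.16, and between the DMSO libraries it was called higher at 48 h. Like TNFRSF21, TNFRSF11B was higher with dose at 24 h and lowest among the 48 h libraries at 100 nM. Of those not called, TNFRSF1B, a receptor of TNF, had a change of 0.83 at 200 nM 24 h, and TNFSF12, which encodes the ligand TWEAK, -0.80.

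Of 18 adaptors, kinases and regulators of the death receptor complexes, 17 passed the filter at 200 nM 24 h, 0 were called higher and 1 lower, beside the same 4.49% and 1.48% of all genes tested. The median change was -0.16 on the log2 scale, with 12 of the 18 below 0, where that of all genes tested was 0.01. The call was MLKL, the pore-forming effector of necroptosis, with 8.18 FPKM with DMSO, 5.12 with 100 nM and 2.48 with 200 nM at 24 h, and 6.35, 6.44 and 5.78 FPKM in the libraries of 48 h. BID, which caspase-8 cuts to link the death receptors to the mitochondria, had a change of -0.89 at 200 nM 24 h, and TRADD, an adaptor of TNF receptors, 0.56. The kinase gene RIPK3, which acts upstream of MLKL, was listed at 0 in 5 libraries and had 0.1 FPKM in the other. In the other comparisons with PCI-24781, 0 of these genes were called, where at most 1.35% of all genes tested were called higher and at most 0.408% lower.

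CASP10, the closest relative of CASP8, had a change of 0.93 on the log2 scale at 200 nM 24 h, from 5.33 to 11.1 FPKM, where CASP8 itself had -0.24, and CASP6 had -0.79. With a pseudocount of 0.1, the change of CASP10 was 1.04, past 2-fold, so its call depends on the pseudocount. Of 8 inhibitors of apoptosis and their antagonists, 7 passed the filter and 0 were called in the comparisons with PCI-24781, which at shares of all genes between 0.06% and 4.49% says little. Their median change at 200 nM 24 h was -0.12. BIRC2, which encodes cIAP1, had 92.6 FPKM with DMSO, 74.6 with 100 nM and 46.7 with 200 nM at 24 h, a change of -0.97 at the higher dose, and 54.9 FPKM in DMSO 48 h, and XIAP had a change of -0.52 at 200 nM 24 h. At 48 h the changes of BIRC2 were -0.12 with 100 nM and -0.14 with 200 nM.

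**Figure D4:**
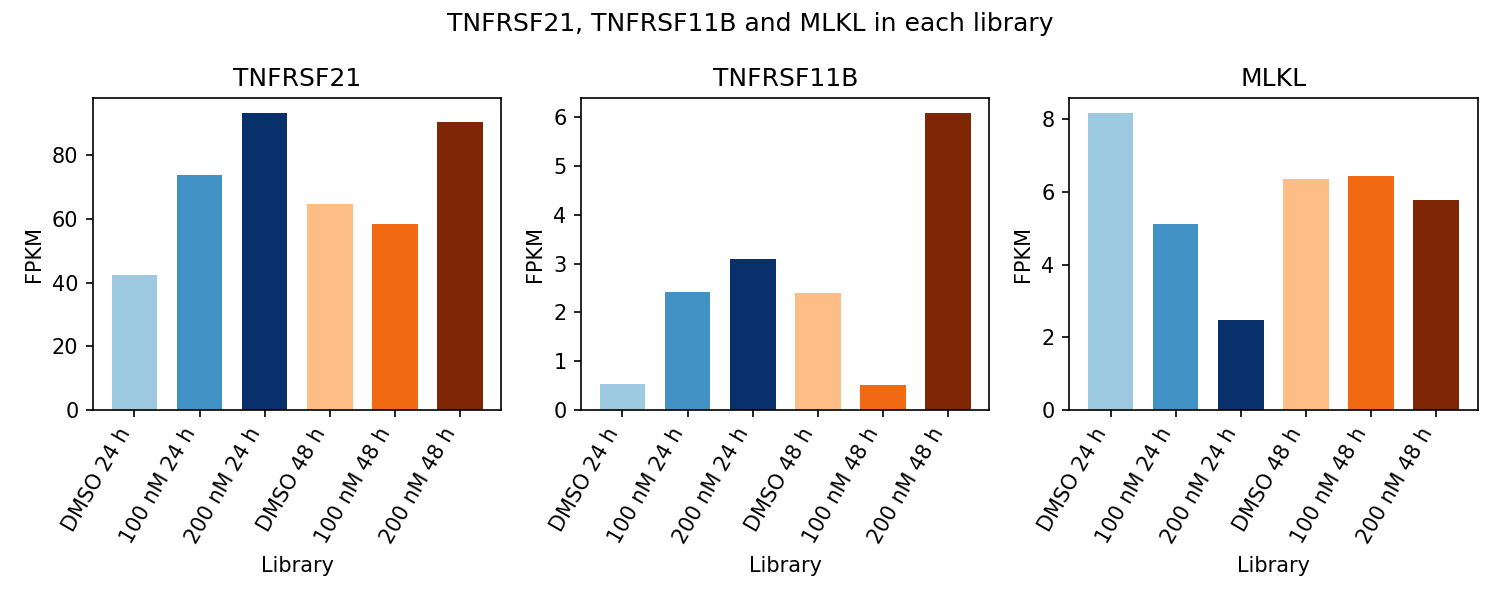
FPKM of TNFRSF21, TNFRSF11B and MLKL in each of the 6 libraries (bars, from 0). TNFRSF21 and TNFRSF11B are higher and MLKL lower with dose at 24 h, and the DMSO 48 h library (64.7, 2.40 and 6.35 FPKM) lies between DMSO 24 h and 200 nM 24 h for each.

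TNFRSF21 had the widest range of the 10 genes on the log2(FPKM + 1) scale, 1.12, and the genes whose levels were most like it were sought among 1229 genes that reached 1 FPKM in any library and had a range of 1 or more. Over the 6 libraries, the highest Pearson correlations of log2(FPKM + 1) with TNFRSF21 were 0.997 for CMTM8, 0.994 for MAGI1, 0.990 for DAAM1, 0.989 for NEBL and 0.988 for ARHGAP26. CMTM8, for example, had 1.41, 5.21 and 7.70 FPKM at 24 h and 4.17, 3.36 and 7.89 FPKM at 48 h, with the 100 nM library below DMSO at 48 h as for TNFRSF21. Correlations above 0.9 were found for 315 of the 1229 genes, so the pattern of TNFRSF21 was a common one among genes that varied. The dose markers CLU and CDKN1A had correlations of 0.95 and 0.91 with TNFRSF21, CASP10 of 0.92, TNFRSF11B of 0.87 and MLKL of -0.78. Among the 10 genes, TNFRSF10B had a correlation of 0.82 with TNFRSF21 and FADD of -0.64. These values describe 6 libraries of 1 cell line, in which dose and time vary together with any property of a single library, and were not tested.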

How the data were processed

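The authors deposited 1 FPKM value per gene and library, given to 2 decimals. The submitters' processing notes name Bowtie2, RSEM and hg19, with no versions. The files hold the same 16623 genes, and RefSeq's table for GRCh38.p14 gave names to 16585 of them by NCBI Gene ID.

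Each PCI-24781 library was compared with the DMSO library of the same time, and DMSO 48 h with DMSO 24 h, as differences in log2(FPKM + 1), which understate the change of low genes. Genes were called at 2-fold or more if either of the libraries compared had 1 FPKM or more. No test was run, since each condition has 1 library. The members and lists were chosen with earlier results of these data known. Named genes were the 10 members, the pathway list genes called in a comparison with PCI-24781 and, of those not called, the 2 per list with the largest absolute change at 200 nM 24 h, the dose and cell markers, and the 5 genes most correlated with the member of widest range. Some genes covered by this rule are left out of the text, and FASLG and RIPK3 are described outside it. Alternatives were pseudocounts of 0.1 and 0.01, rescaling to TPM or by median-of-ratios factors, a 1.5-fold threshold, other filters and other DMSO references.

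Depth was estimated from the spacing of low FPKM values in single-transcript genes between 500 and 1500 bases long (lengths of GENCODE release 29), and is approximate. It was 16400000 to 18700000 fragments, at which 3 fragments on a 2 kb transcript give 0.0819 to 0.0933 FPKM. Poisson intervals use these depths and the shortest listed transcript, and cover counting error only. The calling code was tested on simulated data, which gives no error rate for these libraries. Python 3.11.15, numpy 2.4.6, pandas 2.3.3, scipy 1.17.1 and matplotlib 3.10.9 were used.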

Additional observations from a re-analysis of the deposited data

Results flagged for a closer look

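FADD had changes of opposite sign at the different times. It was below DMSO at both doses at 24 h, with log2 changes of -0.01 and -0.15, and above DMSO at both doses at 48 h, with 0.05 and 0.02. The mean change at 48 h minus that at 24 h was 0.12 on the log2 scale. The approximate 95% Poisson intervals of FADD overlapped with those of DMSO in all 4 comparisons. The difference was not tested, and DMSO 48 h was itself -0.13 relative to DMSO 24 h. The signs depend on the reference: against the other DMSO library, FADD had 0.12 (100 nM) and -0.02 (200 nM) at 24 h, while at 48 h it had -0.08 and -0.11. Against the mean of both, the changes were 0.06 and -0.09 at 24 h, while those at 48 h were -0.01 and -0.04.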

How the results depend on the processing

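Only 1 change of the 10 genes was called, so most stayed under 2-fold in any setting, but signs turned with the DMSO reference: 16 of 40 changes with the DMSO library of the other time and 10 of 40 with both, against 1 of 50 with either rescaling and 0 of 50 with either other pseudocount. TNFSF10 at 100 nM 24 h, for example, went from 0.25 to -0.42. With the DMSO library of the other time, the median log2 change of the 10 genes at 24 h was 0.0030 with 100 nM and -0.047 with 200 nM, at 48 h it was 0.16 with 100 nM and 0.20 with 200 nM, and 0 genes were called at 200 nM 24 h and 1 at 200 nM 48 h. With both DMSO libraries, the median at 200 nM 24 h was -0.014 and 0 genes were called. The share of all genes called with these references is not given here, so nothing particular to the list can be read from these counts. With a 1.5-fold threshold, 1 gene was called at 100 nM 24 h (5.58% of all genes tested were higher) and 2 between the DMSO libraries (8.51%). With a pseudocount of 0.1 or 0.01, 1 gene (TNFSF10) was called between the DMSO libraries. The share of all genes called with these pseudocounts is not given here, so that count cannot be set against it. Rescaling to TPM or by median-of-ratios factors changed no call of the 10 genes, but moved TNFRSF10A between the DMSO libraries to -0.01 and -0.03. For the shifts with the reference, the cause was not tested. No paired analysis was possible by replicate number because the groups share fewer than 2 of them; a fit with time as the block was not run. At about 22 fragments for TNFSF10 and 28 for TNFRSF10C in DMSO 24 h, depth limits what can be read from a change.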
